A study of Mus musculus with 5 samples.

Results

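The 91 genes described here encode the nuclear share of the oxidative phosphorylation machinery. They are all gene symbols that begin with Ndufa, Ndufb, Ndufc, Ndufs, Ndufv, Uqcr, Cox4, Cox5, Cox6, Cox7, Cox8 or Atp5, together with Sdha, Sdhb, Sdhc and Sdhd, that had 50 or more unique molecular identifiers (UMIs, each standing for 1 captured RNA molecule) over all kept cells. Of 94 candidates among 32285 genes, Cox7b2 (9 UMIs), Cox8c (6 UMIs) and Cox8b (3 UMIs) fell below that minimum, and the least abundant gene kept was Cox4i2 with 592 UMIs. The set comprised 37 complex I subunits, 8 complex I assembly factors (Ndufaf genes), 4 complex II, 8 complex III and 15 complex IV subunits, 17 ATP synthase genes, and 2 genes outside these groups (Ndufa4l2 and Cox7a2l). Together they gave 10790967 of 314284403 UMIs, or 3.43%.

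The cells came from kidneys of 5 mice after IRI, the labels' abbreviation, which in kidney research stands for ischemia-reperfusion injury, a block of blood flow followed by its return. Mice 1 and 2 were sampled at 48 h and mice 3, 4 and 5 at day 10, with 1 single-cell RNA sequencing library for each mouse. The labels give the tissue and the time only, and strain, sex, age and the form of the injury are not given in the sources used here. There is no uninjured kidney among the samples, so every comparison sets day 10 against 48 h, and none uses healthy tissue.

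Oxidative phosphorylation takes place in the inner mitochondrial membrane. Complexes I and II pass electrons to ubiquinone, complex III passes them on to cytochrome c, complex IV passes them to oxygen, and ATP synthase uses the proton gradient that complexes I, III and IV build. Most subunits are encoded in the nucleus, while a small core of complexes I, III, IV and ATP synthase is encoded in the mitochondrial genome. Tubule cells of the kidney, above all those of the proximal tubule, the thick ascending limb and the distal convoluted tubule, depend on this machinery for solute transport.

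The table of kept cells held 23797 cells (3720 to 5912 in a library) under 18 cell type labels and 16 clusters, and libraries shared only 3 to 10 cell barcodes in each pair. The median depth was 5823 and 6260 UMIs per cell at 48 h and 10328, 11750 and 10448 at day 10, and mitochondrial genes gave 15.9% and 13.9% of UMIs at 48 h against 8.25% to 10.9% at day 10. Both differ with the time point, and their part in the results was not tested except through the alternatives in the closing section. Labels named here by a segment carried the markers of that segment: the intercalated cell markers summed to 7644 CPM (the UMIs of a gene over all UMIs of the label in that mouse, scaled to the same total) in the intercalated label, and the proximal tubule markers to 15908 CPM in the label S1 and 15074 CPM in Lrp2- S2/3. Within the immune label, cluster 0 was led by macrophage markers (18258 to 35002 CPM) and cluster 5 by neutrophil markers (58625 to 218860 CPM), and they are called macrophage-like and neutrophil-like here. Red blood cell markers were uneven, with 14433 CPM in the interstitial cells and 8136 CPM in the distal convoluted tubule of mouse 2 and at most 710 CPM in those labels of the other mice.

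Levels are CPM of the UMIs of a label in a mouse. Averaged levels are means over the 5 mice of both times, with the SD after ± for the highest label only. The libraries count 3 prime ends, so a transcript's length does not enter. Because the labels come from a clustering that used these genes too, levels between labels are a description with no test. The summed level of the 91 genes was highest in the proximal tubule label Lrp2- S2/3 (67425 ± 6402 CPM, n = 5), followed by the intercalated cells of the collecting duct (55376 CPM) and the distal convoluted tubule (55147 CPM). Proximal tubule S1 (42906 CPM) and the thick ascending limb (43052 CPM) were close to each other, with ranges over mice that overlap. Interstitial cells (26538 CPM), macrophage-like cells (22773 CPM), endothelial cells (22380 CPM) and neutrophil-like cells (18482 CPM) had the lowest levels, and endothelial and macrophage-like values overlap. The cells of Lrp2- S2/3 were shallow, with a median of 1862 to 2406 UMIs by mouse, and mitochondrial genes gave 2.84% to 5.48% of their UMIs. The total behind CPM includes mitochondrial UMIs, and a larger share of them lowers the CPM of the 91 genes. At 48 h the mitochondrial gene mt-Co3 alone averaged 6095 CPM in Lrp2- S2/3. It averaged 30507 CPM in intercalated cells, 44204 CPM in the distal convoluted tubule and 44041 CPM in S1. The order of labels is that of this total only. The order on a total without mitochondrial UMIs is not given here and may differ, and the part of the mitochondrial share was not tested.

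**Figure D1:**
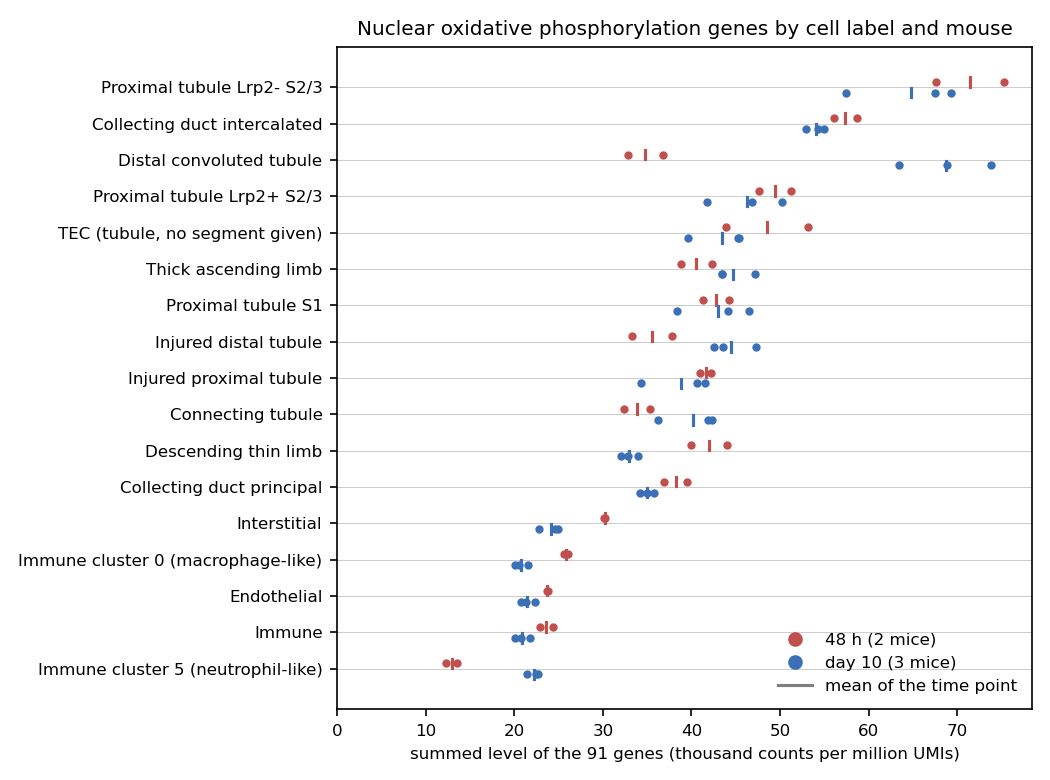
Summed level of the 91 genes in each label or immune cluster (horizontal axis, in units of 1000 CPM), with 1 point per mouse, red for 48 h (2 mice) and blue for day 10 (3 mice), and a bar at the mean of each time point. The distal convoluted tubule and immune cluster 5 lie well apart between the time points, with the day 10 mice higher, and the interstitial cells and immune cluster 0 lie apart with the day 10 mice lower.

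The complexes kept similar proportions from cell type to cell type. In Lrp2- S2/3 complex I summed to 20243 CPM, ATP synthase to 19565 CPM, complex IV to 18251 CPM, complex III to 7111 CPM and complex II to 1344 CPM. In macrophage-like cells the same sums were 6850, 6833, 5974, 2196 and 378 CPM, so complex II was the smallest and complexes I, IV and ATP synthase the largest at both ends of the range. The most abundant gene of each group over all cells was Ndufa13 for complex I (193142 UMIs), Sdha, the catalytic flavoprotein, for complex II (51322 UMIs), the hinge protein Uqcrh for complex III (222370 UMIs), Cox4i1 for complex IV (436252 UMIs), the epsilon subunit Atp5e for ATP synthase (266487 UMIs) and Ndufaf8 for the assembly factors (27404 UMIs).

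Of the 91 genes, 72 had their highest mean level in Lrp2- S2/3, on the same CPM scale that includes mitochondrial UMIs. A further 8 were highest in intercalated cells, among them Uqcrb, which helps form the ubiquinone site of complex III (1313 CPM), Cox8a (2620 CPM) and Cox7a1, the isoform of Cox7a best known from heart and muscle (109 CPM against a median of 19.4 CPM over the labels and clusters). Only a few isoforms had a restricted pattern. Ndufa4l2, a paralog of the complex IV subunit Ndufa4 and a known target of hypoxia-inducible factors, had 267 CPM in interstitial cells against a median of 0.240 CPM. Cox4i2, the alternative form of Cox4i1 that is known from lung and from cells that sense oxygen, had 65.7 CPM there against a median of 0.147 CPM. Cox6b2, known as the testis isoform of Cox6b1, was also highest there (44.7 CPM), while Cox6a2, the heart and muscle isoform of Cox6a1, was highest in macrophage-like cells at only 7.72 CPM.

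For the comparison of times, UMIs of a label were summed for each mouse and tested with edgeR's quasi-likelihood test with Benjamini-Hochberg adjustment over all genes of that label, at an adjusted p of 0.05. Log2 fold changes are day 10 minus 48 h on the edgeR scale, which adjusts for composition (TMM), so they can differ from the ratio of the CPM values. The p-values measure the spread between these 5 mice. In a sum over many cells, fewer cells of one kind within a label and less RNA per cell cannot be told apart. Over 15 labels with at least 20 cells in every library there were 39 calls lower at day 10 and 14 higher, in 7 labels, and 52 of the 91 genes had no call in any label. In the labels with lower calls 2.35% to 9.23% of all genes were lower, and in those with higher calls 0.391% to 10% were higher. The pooled counts mix these unlike shares and are no result about the 91 genes by themselves. All labels come from the same 5 mice and are no independent repeats of each other.

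In macrophage-like immune cluster 0 (514 and 614 cells at 48 h, then 1856, 1584 and 1753 cells), 40 of 91 genes were lower at day 10 and 1 was higher. Of all 13980 genes tested there, 12.5% were lower and 11.5% higher. The median log2 fold change of the 91 genes was -0.36, against 0.07 for all genes. By group, 17 of 37 complex I subunits (median -0.34), 6 of 8 assembly factors (-0.54), 9 of 17 ATP synthase genes (-0.39), 6 of 15 complex IV genes (-0.42), 2 of 8 complex III genes (-0.22) and 0 of 4 complex II genes (-0.02) were lower. Complex II had no call in either direction by edgeR's quasi-likelihood test, with 1 of its 4 genes (Sdhb) at an unadjusted p under 0.05. With only 4 genes, 0 calls cannot be told apart from the shares of 12.5% and 11.5% among all genes.

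Among called genes with a mean of at least 20 CPM, the largest fall was in Atp5g1. It is one of the 3 genes that encode the same mature subunit c of the proton-carrying ring of ATP synthase. Its level was 547 and 501 CPM at 48 h and 293, 236 and 277 CPM at day 10 (log2 fold change of -0.91 with an SE of 0.12, adjusted p = 0.00644). The 48 h mice lie far above the day 10 mice with no overlap, and the call was lost without mouse 1 or 2. Atp5g2, which encodes the same protein with another import sequence, stood at 477 and 426 CPM and then at 456, 455 and 463 CPM (0.07, adjusted p = 0.606), and Atp5g3 fell by 0.40 (adjusted p = 0.0294). The share of Atp5g1 among the UMIs of the 3 genes was thus 42.3% and 42.2% at 48 h and 31.3%, 26.5% and 29.6% at day 10, and Atp5g2 went from 36.9% and 36.0% to 48.8%, 51.2% and 49.4%.

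Among called genes with a mean of at least 20 CPM, falls in the other groups were smaller. Ndufb7, an accessory subunit in the membrane arm of complex I, had 366 and 366 CPM at 48 h and 238, 206 and 227 CPM at day 10 (log2 fold change -0.66, adjusted p = 0.00961). Ndufa4, the complex IV subunit once assigned to complex I, had 466 and 466 CPM and then 315, 237 and 302 CPM (-0.66, adjusted p = 0.0207). In both genes every 48 h value was above every day 10 value. The acyl carrier protein Ndufab1, which serves complex I and mitochondrial fatty acid synthesis, fell by 0.67, the assembly factor Ndufaf3 by 0.68 and Cox7a2 by 0.51 on the log2 scale. Sdha, by contrast, had 93.9 and 93.0 CPM and then 94.2, 101 and 106 CPM (0.16, adjusted p = 0.302), and the iron-sulfur subunit Sdhb had a log2 fold change of -0.39 (adjusted p = 0.0575).

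The 1 gene that rose was Cox7a2l, which joins complexes III and IV into supercomplexes. It had 232 and 219 CPM at 48 h and 371, 411 and 413 CPM at day 10 (log2 fold change of 0.87 with an SE of 0.10, adjusted p = 0.00513), with no overlap between the times. In cells with no UMI of 5 monocyte genes, an alternative chosen after the data were seen, its log2 fold change was 1.14 (adjusted p = 0.00184). Without mouse 2 the adjusted p was 0.0684, and in cells with no UMI of 5 cycling genes it was 0.0528.

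The counts in this cluster depend on which cells and mice enter, and they are given without the share of all genes called in the same fit. The genes lower at day 10 numbered 45 in cells with no monocyte gene UMI, 15 in cells with no cycling gene UMI, 22 with no filter on low counts and 6 after thinning to equal depth and cell number. They numbered 0 without mouse 1, 0 without mouse 2, 29 without mouse 3, 42 without mouse 4 and 2 without mouse 5. Macrophage markers summed to 18647 and 18258 CPM at 48 h and to 30160 to 35002 CPM at day 10, neutrophil markers to 1464 and 3282 CPM and then to 58.6 to 103 CPM, cycling markers to 435 and 356 CPM and then to 132 to 223 CPM. All 9 macrophage, 7 neutrophil and 4 cycling markers were detected. Cells with no monocyte gene UMI were 215 of 514 and 186 of 614 at 48 h, and 1565 of 1856, 1009 of 1584 and 1380 of 1753 at day 10. Proximal tubule markers summed to 230 to 1013 CPM with overlap between the times. The part of the marker differences in the falls was not tested beyond these subsets.

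Other genes of the pathway in macrophage-like cells gave counts in both directions. Of the mitochondrially encoded protein genes, 4 of 13 rose (mt-Co1, mt-Co2, mt-Co3 and mt-Atp6) and all 13 had a log2 fold change above 0, with a median of 0.28, while 79 of the 91 nuclear genes were below 0. Of 15 electron carrier and ubiquinone genes tested, 6 fell and 1 rose. Cytochrome c itself (Cycs) had 227 and 224 CPM at 48 h and 100, 60.4 and 86.5 CPM at day 10 (log2 fold change -1.40), with every early value above every late one. Of 20 genes of the tricarboxylic acid cycle and pyruvate dehydrogenase, 4 fell and 1 rose, and of 40 assembly factors outside the Ndufaf genes 8 fell and 2 rose. Of all genes tested in this cluster, 12.5% were lower and 11.5% higher, and whether any of these lists departs from those shares was not tested. Cytosolic ribosomal protein genes, another set of short and abundant transcripts, gave 6 falls and 5 rises of 82, with a median of 0.08. Cycs and the 4 mitochondrial genes are named here because of their values.

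Promoters of 73 of the 91 genes, from 250 bases before to 50 bases after the RefSeq start (mouse build GRCm38.p6), were searched for 5 short words on both strands. The word CGCATGCG of the factor NRF1, which reads the same on both strands, occurred in 11 of the 73 (15.1%) and in 484 of 17492 genes (2.77%). The YY1 word AAGATGGCG occurred in 8 of 73 (11%) against 2.14% of all genes, the word TCAAGGTCA of estrogen-related receptors in 2 (2.74% against 0.377%), the ETS word CCGGAAGT in 5 (6.85% against 5.69%) and the hypoxia response core ACGTG in 16 (21.9% against 23.2%). Among the 34 genes with a promoter that fell in cluster 0, the NRF1 word occurred in 7, the YY1 word in 7 and the ETS word in 0. A match is a run of letters and no measured binding. The 250 bases upstream are printed for the subunit c genes that moved apart, for Ndufaf4, an assembly factor that fell by 0.55 and was picked for its NRF1 word after the values were seen, and for Cox7a2l, the gene that rose. Capitals mark CGCATGCG and ACGTG on either strand. One run of capitals in Atp5g1 is a pair of overlapping matches, 1 on each strand, and the Cox7a2l stretch holds no match. The stretches are at chr11:96075632-96075881 (minus strand, Atp5g1), chr15:102671048-102671297 (minus strand, Atp5g2), chr4:24897833-24898082 (plus strand, Ndufaf4) and chr17:83514334-83514583 (minus strand, Cox7a2l), printed 5′ to 3′ in the direction of the gene.
Atp5g1: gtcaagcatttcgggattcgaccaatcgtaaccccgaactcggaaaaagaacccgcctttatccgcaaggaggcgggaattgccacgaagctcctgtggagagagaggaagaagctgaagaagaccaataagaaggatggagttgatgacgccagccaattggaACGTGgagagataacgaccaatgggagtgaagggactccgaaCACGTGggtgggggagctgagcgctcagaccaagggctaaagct
Atp5g2: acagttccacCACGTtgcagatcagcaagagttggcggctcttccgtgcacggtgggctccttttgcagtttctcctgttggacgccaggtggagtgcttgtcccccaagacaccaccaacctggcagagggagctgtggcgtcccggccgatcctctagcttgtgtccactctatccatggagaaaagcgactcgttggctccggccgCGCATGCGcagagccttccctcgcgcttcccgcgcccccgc
Ndufaf4: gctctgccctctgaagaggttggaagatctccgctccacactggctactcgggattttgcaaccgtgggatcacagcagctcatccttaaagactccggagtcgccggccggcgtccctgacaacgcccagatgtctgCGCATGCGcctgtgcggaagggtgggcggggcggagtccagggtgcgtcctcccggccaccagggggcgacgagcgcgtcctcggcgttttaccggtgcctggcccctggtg
Cox7a2l: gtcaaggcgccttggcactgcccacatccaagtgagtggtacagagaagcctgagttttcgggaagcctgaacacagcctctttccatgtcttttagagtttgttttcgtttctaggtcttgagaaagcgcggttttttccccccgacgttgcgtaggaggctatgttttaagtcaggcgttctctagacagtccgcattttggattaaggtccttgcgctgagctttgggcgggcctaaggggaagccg

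In interstitial cells (115 and 71 cells at 48 h, then 349, 286 and 184), 6 of 90 genes tested fell and none rose, where 3.53% of all genes were lower. The hypoxia target Ndufa4l2 had 489 and 412 CPM at 48 h and 146, 130 and 156 CPM at day 10 (log2 fold change of -1.62 with an SE of 0.14, adjusted p = 0.00125). Cox4i2 had 113.8 and 101 CPM and then 32.9, 35.5 and 45.2 CPM (-1.50, SE 0.19, adjusted p = 0.00344). Both fell by far more than the median of the genes in this label (-0.31), and in neither did the times overlap. Their common counterparts moved less: Ndufa4 had a log2 fold change of -0.35 (adjusted p = 0.183) and Cox4i1 of -0.23 (adjusted p = 0.313). Ndufa4l2 therefore made up 41.9% and 37.6% of the UMIs of the Ndufa4 pair at 48 h and 20.9% to 22.4% at day 10, and Cox4i2 made up 9.39% and 8.76% of the Cox4i pair and then 3.53% to 4.45%. The other falls were in Ndufaf3 (-1.01), Ndufb4 (-0.69), Ndufb3 (-0.67) and Cox7a2 (-0.58), and Cox6b2 had 31.4 to 42.7 CPM and then 44.3 to 56.1 CPM (0.44, adjusted p = 0.271). Leaving out a mouse left 2 calls (mouse 1, 2 or 4) or 3 (mouse 3 or 5).

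The fall of Ndufa4l2 passed the test under every alternative that was run, leaving out each mouse included. Among interstitial cells with 2 or more UMIs of 6 mural cell genes it was -1.40 (adjusted p = 0.00641) and among those with fewer it was -1.84 (adjusted p = 0.000516), a split chosen after the data were seen. Mural cells wrap small vessels, and the cells with 2 or more such UMIs numbered 61 and 36 at 48 h and 159, 127 and 89 at day 10. Cox4i2 lost its call in the cells with fewer mural UMIs, where it was -2.24 (adjusted p = 0.0863). After thinning to equal depth and cell number the only call left in this label was that of Ndufa4l2, so Cox4i2 was not called there either. Epas1, which encodes the hypoxia-inducible factor HIF-2 alpha, was 1 of 14 regulators tested and the only one with a call here: 441 and 477 CPM at 48 h and 142, 193 and 229 CPM at day 10 (-1.27, adjusted p = 0.00912). Of the 13 mitochondrially encoded genes 11 fell in interstitial cells, with a median of -0.55. The median of the nuclear genes was below 0 there too, though few of them were called.

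**Figure D2:**
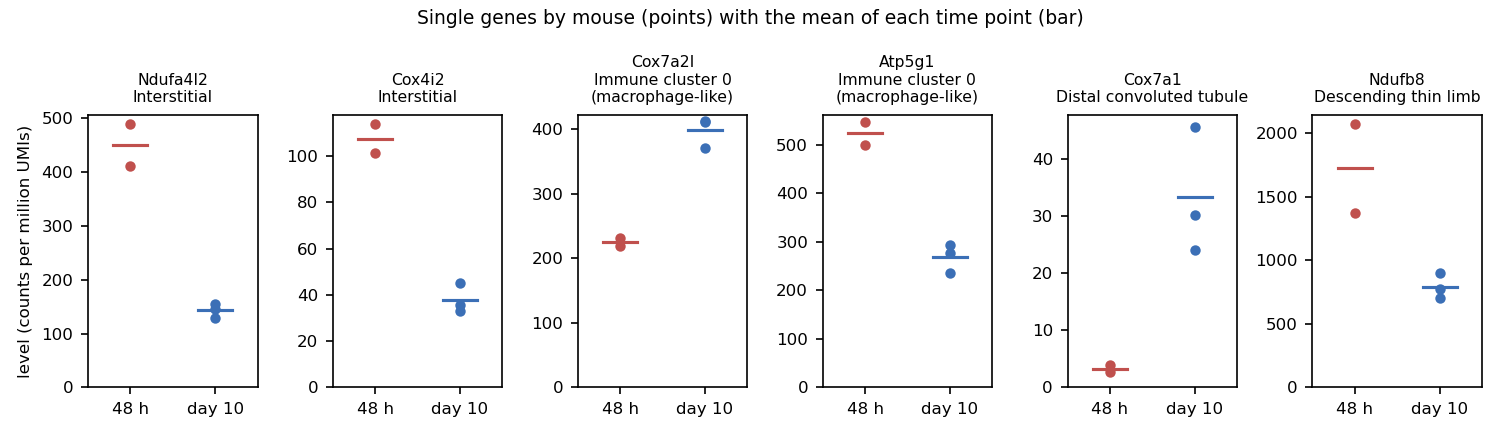
Level of 6 genes in the cell type named above each panel (vertical axis, CPM, from 0), with 1 point per mouse and a bar at the mean of each time point. Ndufa4l2, Cox4i2, Atp5g1 and Ndufb8 lie lower and Cox7a2l and Cox7a1 higher in all 3 day 10 mice than in both 48 h mice.

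In the descending thin limb (90 and 96 cells at 48 h and at most 157 in a mouse at day 10), 12 of 88 genes fell and none rose, against 2.35% of all genes lower. The median was -0.35, with 7 calls in complex I, 3 in ATP synthase and 2 in complex IV. Ndufb8, an accessory subunit of the membrane arm of complex I, had its highest level of all labels here and had 1369 and 2074 CPM at 48 h and 699, 896 and 775 CPM at day 10 (log2 fold change of -1.16 with an SE of 0.18, adjusted p = 0.00938). The 2 early mice differ from each other but both lie above all late ones, and without mouse 2 the change was -0.89 and lost its call. Ndufb11 (-0.71), Atp5g1 (-0.70), Ndufa5 (-0.67) and Ndufb2 (-0.66) followed. Markers of the segment summed to 6374 and 4397 CPM at 48 h and to 1475 to 2214 CPM at day 10, and their part in these falls was not tested. The calls numbered 4 without mouse 1, 3 or 4, 1 without mouse 5 and 0 without mouse 2.

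The distal convoluted tubule went the other way. It is rich in mitochondria and reabsorbs salt through the cotransporter Slc12a3, and it was small here (25 and 39 cells, then 62, 59 and 88). Of 88 genes tested, 11 were higher at day 10 and none lower, where 0.391% of all genes were higher. All 88 had a log2 fold change above 0, with a median of 0.76 against -0.01 for all genes. The medians were 1.00 for complex III, 0.96 for complex IV, 0.89 for ATP synthase, 0.68 for complex I, 0.66 for complex II and 0.52 for the assembly factors, and the calls fell on 4 complex IV, 3 complex III, 3 ATP synthase genes and 1 complex I gene. Ribosomal protein genes had a median of 0.15 and 0 calls of 80 in the same cells.

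Atp5md, a small subunit that helps ATP synthase form dimers, had 380 and 416 CPM at 48 h and 1093, 1136 and 987 CPM at day 10 (log2 fold change 1.27, adjusted p = 0.0234). The core protein Uqcrc2 of complex III had 148 and 136 CPM and then 356, 350 and 407 CPM (1.23, adjusted p = 0.0256). Late values were above early ones in both, with a wide gap. The complex IV subunit Cox6b1 rose by 1.22 and the complex III subunit Uqcr11 by 1.21. Cox7a1 had only 4 UMIs at 48 h, 2.64 and 3.86 CPM, against 24.1, 30.3 and 45.7 CPM at day 10 (3.11, SE 0.59, adjusted p = 0.0365). Cox4i1 (0.88, adjusted p = 0.0933) and Sdha (0.57, adjusted p = 0.283) did not pass, though their values did not overlap between times either.

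The mitochondrially encoded genes moved against the nuclear ones in these cells: all 13 were below 0, with 2 calls and a median of -0.92. Cytochrome c (Cycs) rose by 1.44 on the log2 scale, from 224 and 165 CPM to 651, 467 and 619 CPM. Pdk4, a kinase that switches off pyruvate dehydrogenase, had 92.4 and 72.1 CPM and then 27.3 CPM at most (log2 fold change -2.22), and was the 1 call among 20 genes of the tricarboxylic acid cycle and pyruvate dehydrogenase. Both are named for their values. The share of mitochondrial UMIs in the label was 23.3% and 25.6% at 48 h and at most 18.1% at day 10. Connecting tubule markers summed to 475 and 1068 CPM and then to 2133 to 2154 CPM, and macrophage markers to 21.1 and 29.6 CPM and then to 165 to 666 CPM, while the markers of the label itself overlapped between times (2003 to 3927 CPM). With cells limited to 1 or more UMIs of Slc12a3, chosen after the data were seen, 36 genes were higher, and the share of all genes higher in that subset is not given here. With cells under 20% mitochondrial UMIs there was 1, after thinning 1, and on leaving out a mouse 2 (mouse 1 or 2), 1 (mouse 3) or 0 (mouse 4 or 5).

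**Figure D3:**
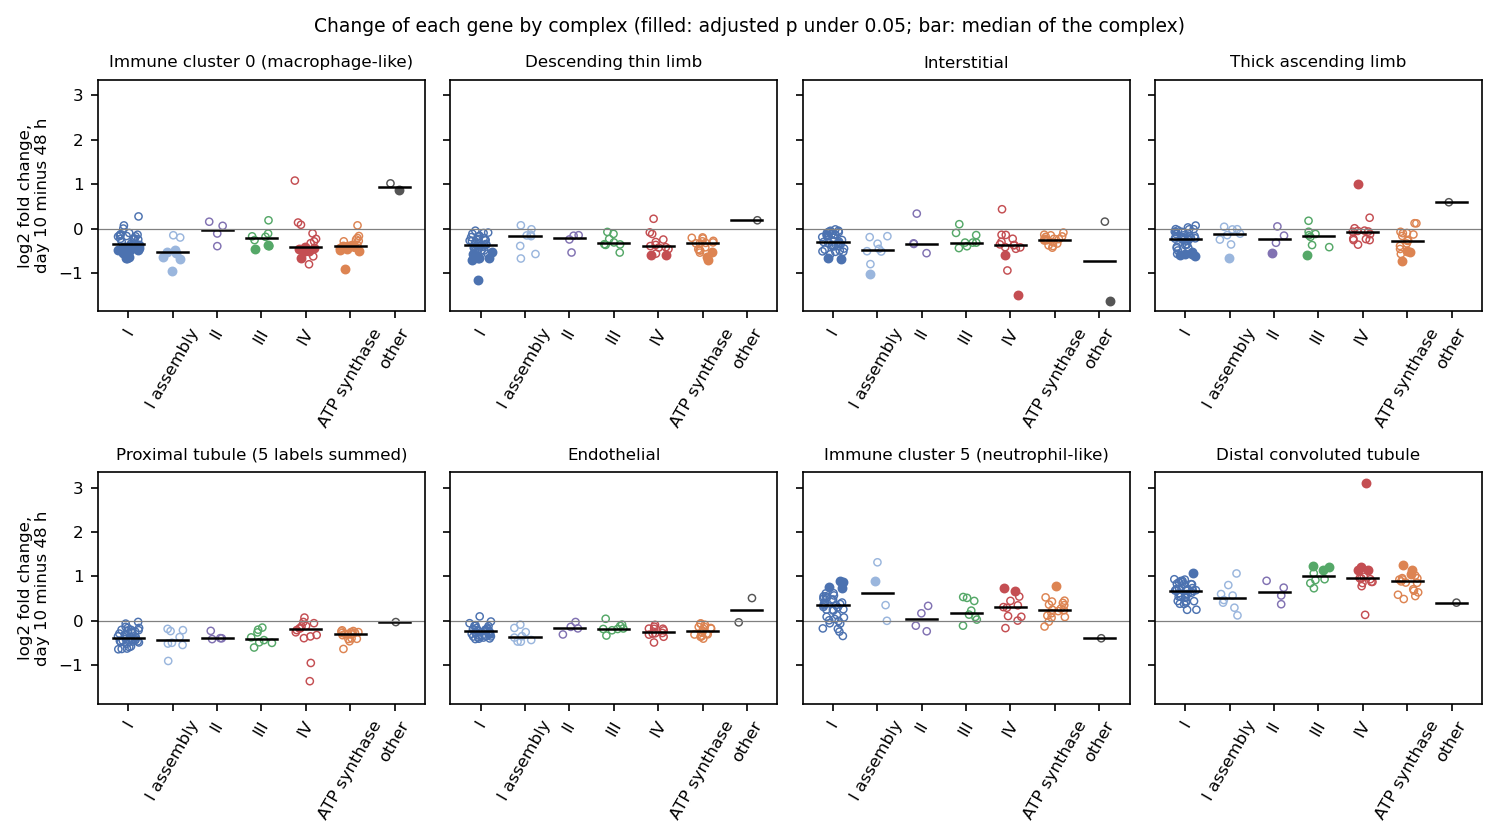
Log2 fold change of each gene, day 10 minus 48 h (vertical axis), by complex (horizontal axis), in 8 cell types, with filled points for adjusted p under 0.05 in edgeR's quasi-likelihood test and a bar at the median of each complex. The points lie mostly below 0 in the immune cluster 0, descending thin limb, interstitial, proximal tubule and endothelial panels and all above 0 in the distal convoluted tubule.

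In the thick ascending limb (683 and 345 cells, then 419, 195 and 293), the segment that dilutes urine by active salt transport, 11 of 88 genes were lower and 1 was higher at day 10. Of all genes there 5.38% were lower and 4.98% higher. The direction depends on the scaling: the median was -0.21 with TMM and 0.15 with library totals, which gave 0 lower and 8 higher and moved the median of all genes to 0.36. Relative to all genes the set was lower under both. Uqcrq, a complex III subunit, had 725 and 713 CPM and then 589, 591 and 644 CPM (log2 fold change -0.60), and Atp5k (-0.73), Ndufc1 (-0.62), Ndufa2 (-0.60), Ndufb7 (-0.57) and Sdhc (-0.55) were also lower under TMM. Cox7a1 rose under TMM from 8.97 and 11.3 CPM to 21.6, 21.2 and 34.1 CPM (1.00, adjusted p = 0.0427). Cox7a2l had 217 and 212 CPM at 48 h and 382, 367 and 497 CPM at day 10, with no call. Over the 15 labels tested its log2 fold change was above 0 in 10 and below 0 in 5. The lower calls numbered 10 without mouse 1, 2 without mouse 2 and 0 without mouse 3, 4 or 5, and the call of Cox7a1 was lost on leaving out any mouse.

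The 13 mitochondrially encoded genes all fell in the thick ascending limb, with a median of -1.85. They gave 5.55 and 5.13 UMIs for each UMI of the 91 nuclear genes at 48 h, and 1.71, 2.04 and 1.64 at day 10. The same ratio was 6.32 and 7.82 and then 2.06, 2.05 and 2.46 in the distal convoluted tubule. In macrophage-like cells it ran the other way, 1.54 and 1.55 at 48 h and 2.14, 2.68 and 2.49 at day 10. In each of the 3 cell types the times do not overlap. The ratio also moves with the share of mitochondrial UMIs, which was 21.5% and 21.7% and then 7.42% to 8.88% in the thick ascending limb, and the part of RNA quality in it was not tested.

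**Figure D4:**
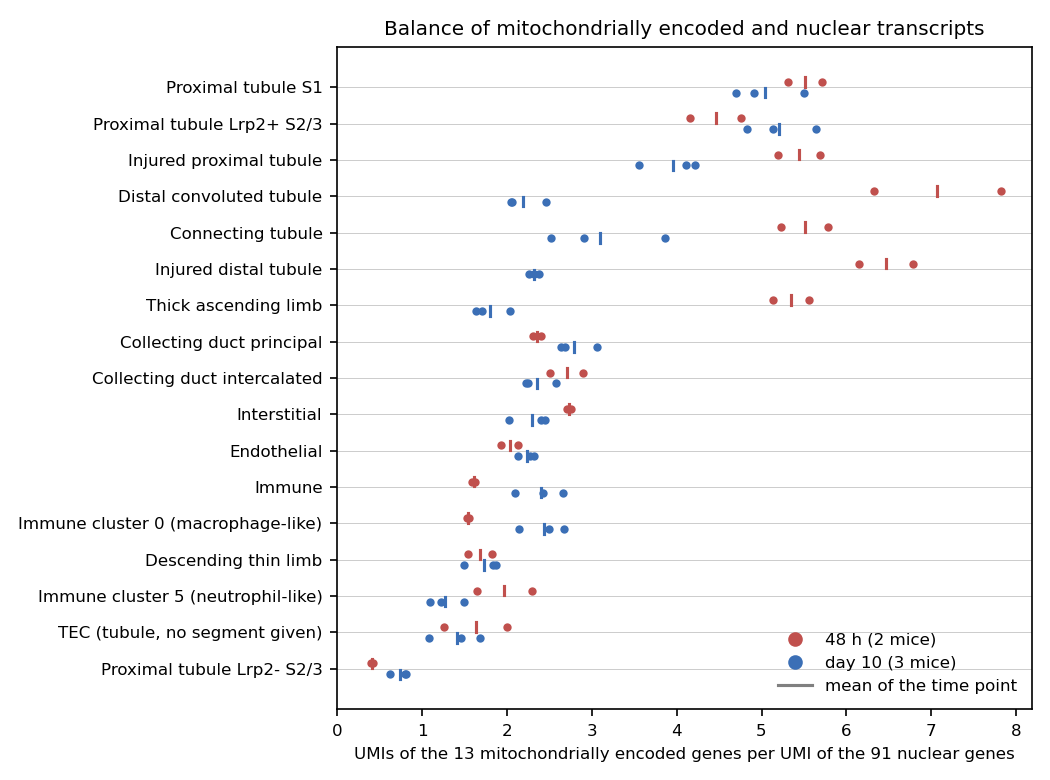
UMIs of the 13 mitochondrially encoded genes per UMI of the 91 nuclear genes (horizontal axis) in each label or immune cluster, with 1 point per mouse and a bar at the mean of each time point. The thick ascending limb and the distal convoluted tubule lie above 5 at 48 h and below 2.5 at day 10, and immune cluster 0 lies higher at day 10.

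The difference of the time effect between the distal convoluted tubule and the thick ascending limb was tested as an interaction with mouse as a block, a pair chosen after the data were seen. Of 88 genes, 75 were called above 0 (adjusted p under 0.05) and none below, where 4.02% of all genes were called above and 2.4% below. Regardless of the test, 87 of the 88 differences were above 0 and 1, that of Cox7a2l, was below. The median difference was 0.98, against 0.03 for all genes, and it was 1.66 for Uqcrq (SE 0.17) and 1.36 for Atp5md. Without any single mouse 57 to 76 genes were called.

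The proximal tubule, the largest consumer of oxygen among the segments, had few calls. With its 5 labels summed, 0 of 89 genes passed edgeR's quasi-likelihood test, where 1.94% of all genes were lower, and 34 had an unadjusted p under 0.05. DESeq2 called 14 lower and limma 0. The share of all genes at that unadjusted p, or called by DESeq2, is not given here, so neither count can be set against a background. The median was -0.32 and 88 of 89 genes were below 0, but with library totals the median was -0.06 while that of all genes was 0.29. Among injured proximal tubule cells, 3 of 89 genes were lower, where 3.12% of all genes were. Uqcrq had 878 and 927 CPM at 48 h and 683, 591 and 643 CPM at day 10 (-0.92, adjusted p = 0.0378), and Cox6b2 (-1.58) and the iron-sulfur core subunit Ndufs1 of complex I (-0.75) were the others. The median was -0.51, and with library totals it was -0.09 while that of all genes was 0.45. In S1, 2 of 88 were lower, where 2.43% of all genes were. Cox6b2 had 27.0 and 16.6 CPM and then 6.95, 9.51 and 7.34 CPM (-1.63), and the assembly factor Ndufaf5, named because the count is small, had a log2 fold change of -1.31. Without mouse 2, 3 or 5 the injured cells had 0 calls, without mouse 4 they had 2 and without mouse 1 they had 4, while S1 had 0 without mouse 1 or 5.

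Differences of the time effect between the proximal tubule and 3 other cell types gave 1 call in all, and DESeq2 and limma were not run on them. Against the thick ascending limb 0 of 90 genes passed edgeR's test, with 8 at an unadjusted p under 0.05, where 3.72% of all genes were called above 0 and 3.66% below. Against endothelial cells 0 of 89 passed, with 3 at an unadjusted p under 0.05, where 1.03% were called above and 0.514% below. Against macrophage-like cells 1 of 91 genes was called, Cox7a2l, whose time effect was lower by 0.97 in the proximal tubule (adjusted p = 0.0173), where 2.88% were called above and 4.05% below. That count was 0 without mouse 1, 2, 3 or 5 and 2 without mouse 4. In endothelial cells alone 0 of 88 genes passed by edgeR, DESeq2 or limma, with 34 at an unadjusted p under 0.05, a median of -0.22, and 0.205% of all genes lower. The share of all genes at an unadjusted p under 0.05 is not given here for these comparisons or for endothelial cells.

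In the immune label as a whole 5 genes were lower and 2 higher, of 91 tested, where 9.23% of all genes were lower and 10% higher. The genes that rose were Cox7a2l (log2 fold change 0.90) and Ndufa6 (0.41), an accessory subunit of complex I. The lower calls numbered 7 without mouse 4, 3 without mouse 3 and 0 without mouse 1, 2 or 5. Neutrophil-like immune cluster 5 (332 and 520 cells, then 229, 90 and 211) differed from macrophage-like cells. There 8 of 82 genes were higher and none lower, where 7.79% of all genes were higher, so the count is close to the share of all genes. The median of the 82 genes was 0.30, and that of all genes on the TMM scale is not given here. Cox8a, a small complex IV subunit, had 733 and 668 CPM and then 1646, 1651 and 1469 CPM, which is 0.68 on the TMM scale. Ndufaf8 (0.90), Ndufa11 (0.90), Ndufb5 (0.88), Atp5g2 (0.80) and Ndufb1-ps (0.76) rose too. Neutrophil markers summed to 166430 and 218860 CPM at 48 h and to 58625 to 65841 CPM at day 10. The higher calls numbered 10 without mouse 4, 6 without mouse 3, 2 without mouse 1, 1 without mouse 2 and 0 without mouse 5. With library totals 62 genes were higher and the median of all genes moved to 0.55.

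The time effect in neutrophil-like cells minus that in macrophage-like cells, also chosen after the data were seen, was called above 0 (adjusted p under 0.05) for 21 of 89 genes and below 0 for 1. Of all genes 7.63% were called above and 8.76% below. Regardless of the test, 78 of the 89 differences were above 0 and 11 below, and the median of the 89 genes was 0.46. The median difference of all genes in this fit is not given here. Among the 21 calls was Cox6a2 (difference of 8.63, SE 2.62), a scarce gene with a mean of 7.72 CPM where it was highest. In all, 31 genes were called without mouse 4, 16 without mouse 3, 12 without mouse 1, 9 without mouse 5 and 7 without mouse 2. For Atp5g1 the difference was 1.28 (adjusted p = 0.000278). Cox7a2l was the gene called below 0, with a difference of -1.41 (adjusted p = 9.2e-05): its level in neutrophil-like cells was 163 and 168 CPM at 48 h and 180, 164 and 191 CPM at day 10. The remaining 8 labels had no call for any of the 91 genes by edgeR's quasi-likelihood test, with 131 gene results at an unadjusted p under 0.05 among them. There DESeq2 called 3 genes lower in intercalated cells and 1 in principal cells, and limma called none. For these labels the share of all genes at that unadjusted p, or called by DESeq2, is not given here.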

How the data were processed

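Per the labels, libraries were made with the 10x Genomics 3 prime kit, version 3.1, from polyA RNA of 1 kidney sample per mouse. The authors deposited raw UMI counts per gene and barcode for each library. The submitters' processing notes name Cell Ranger 6.0.2, Seurat 4.0.5 and mm10, while the matrix headers give Cell Ranger 6.0.0. The authors' deposited table of kept cells gives the UMI count, the gene count, the percent of mitochondrial UMIs, a cluster and a cell type label of each cell. All its cells have at least 1000 UMIs and under 35% mitochondrial UMIs. How doublets, free RNA and reads of near-identical gene copies were treated is not given in the sources used here, and no doublet caller was run.

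Counts were summed per mouse and label, or per merged type (5 proximal tubule labels) or immune cluster, where every library had at least 20 cells. Sums were tested with edgeR 4.0.16 in R 4.3.3 (filterByExpr, TMM, quasi-likelihood F test, Benjamini-Hochberg adjustment, threshold 0.05). Differences between cell types were interaction terms with mouse as a block. Alternatives used DESeq2 1.42.0, limma 3.58.1, other scalings and filters, cells thinned to 1000 UMIs, cells under 20% mitochondrial UMIs, marker subsets chosen after the data were seen, and each mouse left out. The fits were tested on simulated data. RefSeq promoters (GRCm38.p6) were matched by symbol, or by the RefSeq symbol of the gene's Ensembl identifier where the symbol was absent.

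The genes, lists and tests were chosen with earlier results of these data known. The text names, per cell type, up to 5 of the largest rises and falls past the threshold with a mean of at least 20 CPM. It also names, in some cell types only, the subunit c genes, complex II and the tissue isoform pairs. The pairs are Cox4i, Cox6a, Cox6b, Cox7a with Cox7a2l, Cox8a with Cox8b, and Ndufa4 with Ndufa4l2. The most abundant gene of each complex is named over all cells. Other genes are named for their values.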

Additional observations from a re-analysis of the deposited data

Results flagged for a closer look

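Several differences of the time effect between cell types passed edgeR's quasi-likelihood test of the difference itself, with Benjamini-Hochberg adjustment. Between the distal convoluted tubule and the thick ascending limb, 75 of the 88 genes tested differed past an adjusted p of 0.05, all with the higher day 10 effect in the distal convoluted tubule, where 4.02% of all genes were called in that direction. Between neutrophil-like immune cluster 5 and macrophage-like immune cluster 0, 21 of 89 genes were called with the higher effect in neutrophil-like cells and 1, Cox7a2l, with the lower (difference of -1.41), against 7.63% and 8.76% of all genes. Between the proximal tubule and macrophage-like cells 1 of 91 genes was called, again Cox7a2l, with a difference of -0.97, and 4.05% of all genes were called in that direction, so the count is no larger a share than that of all genes. The last 2 comparisons share the same macrophage-like cells and are not independent. The first 2 pairs were chosen after the data were seen, so their p-values are not those of a test set in advance.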

How the results depend on the processing

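No paired analysis was possible because the 48 h and day 10 mice share no replicate numbers. Counts that moved by over 1.5 times are given here without the share of all genes called in the same fit, and the cause was not tested. With no filter on low counts, the calls became 44 higher (from 11) in the distal convoluted tubule, 17 lower (from 11) in the thick ascending limb, 27 lower (from 3) in injured proximal tubule, 22 lower (from 40) in immune cluster 0, and 76 lower (from 39) and 48 higher (from 14) over the labels. With library totals they became 42, 0 and 1 in these 3 labels in turn, 62 higher (from 8) in immune cluster 5, and 23 lower and 51 higher over the labels. DESeq2 gave 41 higher in the distal convoluted tubule, 18 lower in the thick ascending limb, 19 lower (from 12) in the descending thin limb, 14 lower (from 5) in immune cells, 21 lower in injured proximal tubule, 5 higher in immune cluster 5, and 87 lower and 46 higher over the labels. limma gave 1 in injured proximal tubule and 10 lower (from 6) in interstitial cells.

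Thinning to 1000 UMIs a cell and equal cell numbers left 1 in the distal convoluted tubule, 2 in the thick ascending limb, 1 in the descending thin limb, 0 in immune cells, 0 in injured proximal tubule, 1 in interstitial cells, 6 in immune cluster 0, 3 in immune cluster 5, and 5 lower and 2 higher over the labels. Cells under 20% mitochondrial UMIs gave 1 higher in the distal convoluted tubule, 5 lower in the thick ascending limb, 6 lower in injured proximal tubule and 4 higher over the labels. Subsets chosen after the data were seen gave 36 in Slc12a3-positive distal convoluted tubule cells, 2 in interstitial cells with mural UMIs and 15 in immune cluster 0 without cycling UMIs. Of the differences between cell types, proximal tubule minus thick ascending limb (0) became 2 with no filter and 4 with library totals, proximal tubule minus immune cluster 0 (1) became 2 with no filter, 6 with library totals and 2 without mitochondrially encoded genes, and immune cluster 5 minus 0 (22) became 77 with library totals.

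Leaving out 1 mouse gave 0 to 10 calls lower in the thick ascending limb, 0 to 4 in the descending thin limb, 0 to 2 higher in the distal convoluted tubule, and lower ones numbered 0 to 7 in immune cells, 0 to 4 in injured proximal tubule, 2 to 3 in interstitial cells, 0 to 42 in immune cluster 0 and 0 to 10 higher in immune cluster 5, with 4 to 20 lower and 1 to 2 higher over the labels. For the differences it gave 0 to 2, 0 to 0 and 0 to 2 for the proximal tubule against the thick ascending limb, endothelial cells and immune cluster 0, 57 to 76 for the distal convoluted tubule against the thick ascending limb and 7 to 31 for immune cluster 5 against 0. Without a 48 h mouse, that time has 1 sample, which is assumed to vary like the day 10 mice. For the 45 single gene results, 611 values under alternatives held 393 that stayed past the threshold and 218 that did not, 150 of them on leaving out a mouse, and 0 changed direction. After thinning each cell holds 1000 UMIs, so single genes rest on few counts.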
